A study of Rattus norvegicus with 9 samples.

Results

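Myofibroblast contractile and cytoskeletal genes were described in rat liver through 10 genes chosen by name, out of 40154 gene rows measured: Acta2, Tagln, Myl9, Tpm1, Tpm2, Cnn1, Cnn2, Cald1, Des and Vim. All 10 had a row in every library. RNA of whole liver was sequenced in 9 libraries from wild type Sprague-Dawley rats aged 5 months, with 3 libraries in each of 3 groups. Rats with cirrhosis had been given either HepLPCs, progenitor-like cells that derive from rat hepatocytes (HepLPC livers), or phosphate-buffered saline (PBS livers). The normal livers were from untreated rats, with neither carbon tetrachloride (CCl4) nor transplanted cells, so the injury and the injection cannot be told apart between PBS and normal livers. The dose, route and time of the injection are not given in the labels. Nor do the labels say whether replicates were separate animals, and p-values therefore measure the variation among these libraries, which may in part be technical.

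Hepatic stellate cells store vitamin A in the healthy liver. After injury they lose these stores and become myofibroblasts, cells that lay down scar and contract. Contraction rests on filaments of smooth muscle actin (Acta2) that slide along myosin, with tropomyosins, calponins, caldesmon and transgelin bound along the actin. Desmin and vimentin are intermediate filaments, which give the cell tensile strength. Desmin is a long-used marker of stellate cells in the rat, while vimentin is also made by endothelial cells, leukocytes and other cells of mesenchymal origin. Vascular smooth muscle makes most of the same contractile proteins. In whole liver RNA, fewer cells of a type and less RNA per cell cannot be told apart.

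Many smooth muscle genes are known to be controlled by serum response factor (SRF), which binds the CArG box, and some by TEAD factors, which bind the letters CATTCC. The 250 bases before the transcription start were taken from RefSeq promoters of the rat build GRCr8, which held 9 windows for 8 of the 10 genes. They are shown for the 4 genes with a window that were higher in PBS than in normal livers by the test below, and for Cnn2. Capitals mark a CArG box, a CArG box with 1 letter off, CATTCC on either strand, or TATAAA on either strand, and no marked matches overlapped.
Acta2 (GRCr8 chr1:241172504-241172753, minus strand): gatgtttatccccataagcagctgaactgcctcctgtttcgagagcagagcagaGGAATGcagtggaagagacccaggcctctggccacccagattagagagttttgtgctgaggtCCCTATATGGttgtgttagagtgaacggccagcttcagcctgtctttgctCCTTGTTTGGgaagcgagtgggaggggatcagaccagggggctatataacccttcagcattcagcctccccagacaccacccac
Tpm1 (GRCr8 chr8:76543416-76543665, minus strand): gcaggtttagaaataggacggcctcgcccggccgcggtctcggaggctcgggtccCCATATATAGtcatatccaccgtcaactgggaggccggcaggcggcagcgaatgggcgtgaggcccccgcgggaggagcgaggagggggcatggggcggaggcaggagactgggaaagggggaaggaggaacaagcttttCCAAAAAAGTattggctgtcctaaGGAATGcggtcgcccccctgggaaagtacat
Cnn2 (GRCr8 chr7:10370313-10370562, minus strand): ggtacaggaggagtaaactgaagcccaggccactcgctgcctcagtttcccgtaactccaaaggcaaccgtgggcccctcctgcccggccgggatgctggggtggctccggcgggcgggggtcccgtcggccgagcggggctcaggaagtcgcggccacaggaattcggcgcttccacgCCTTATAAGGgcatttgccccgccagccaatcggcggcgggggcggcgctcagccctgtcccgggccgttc
Des (GRCr8 chr9:84299376-84299625, plus strand): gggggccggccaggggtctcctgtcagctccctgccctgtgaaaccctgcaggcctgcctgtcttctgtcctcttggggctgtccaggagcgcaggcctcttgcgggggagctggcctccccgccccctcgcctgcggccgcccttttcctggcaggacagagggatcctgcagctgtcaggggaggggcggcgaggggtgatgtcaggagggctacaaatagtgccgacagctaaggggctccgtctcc
Vim (GRCr8 chr17:81577011-81577260, plus strand): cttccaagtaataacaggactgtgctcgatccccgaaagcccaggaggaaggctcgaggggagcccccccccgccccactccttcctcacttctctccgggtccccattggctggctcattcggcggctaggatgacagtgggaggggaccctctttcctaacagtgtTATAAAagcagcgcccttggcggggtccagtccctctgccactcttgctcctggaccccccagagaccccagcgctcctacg

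In these windows the full CArG box occurred in Cnn2, 71 bases before the start (CCTTATAAGG), as in 1.50% of the 33469 RefSeq windows of this length. A CArG box with 1 letter off was found in 17.7% of all windows. Acta2 held it at 134 bases (CCCTATATGG) and at 84 bases (CCTTGTTTGG) before the start, and Tpm1 at 195 (CCATATATAG) and 55 bases (CCAAAAAAGT). CATTCC, present in 12.1% of all windows, occurred on the opposite strand as GGAATG in Acta2 (196 bases before the start) and in Tpm1 (31 bases). The windows of Cald1, whose level did not pass any test below, also held matches: a CArG box with 1 letter off at 245 bases (GCTTTTTAGG) and GGAATG at 195 bases in one, and TATAAA at 232 bases in the other. The windows of Tpm2 and Cnn1 held none. The Des window held none of these letters, and the Vim window held TATAAA at 82 bases, as 12.9% of all windows did on either strand. A match describes letters in the window and no binding was measured.

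Levels are in RPKM, the reads of a gene divided by its length in kilobases and by the M reads of the library, as deposited. Whole reads recovered from the RPKM values came to between 17.4 and 21.8 M per library. PBS replicate 1 and HepLPC replicate 2 stood apart: in them the deviation from the group mean fell with gene length (Spearman correlation -0.564 and -0.528 across 11124 genes), against -0.157 to 0.423 in the other 7 libraries. These correlations run across genes, which are no replicates, and describe 1 library each. Hepatocyte markers were present in every library as the liver label implies, with albumin (Alb) at 47139 RPKM or more.

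The 10 genes covered a wide range of levels. In normal livers, RPKM was highest for Cald1 (75.9 ± 3.14) and next for Tpm1 (19.2 ± 0.591), Vim (11.2 ± 1.82), Myl9 (7.09 ± 0.655) and Tagln (4.03 ± 1.60; mean ± SD, n = 3 here and throughout). Cnn2 followed at 2.92 ± 0.352 RPKM, then Acta2 at 1.31 ± 0.786, Des at 1.17 ± 0.0493 and Tpm2 at 1.10 ± 0.774 RPKM, 3 neighbours whose values overlapped. Cnn1 was lowest at 0.131 ± 0.063 RPKM. The reads behind these values were few for several genes: between 19 and 144 per library for Acta2, 25 and 113 for Tpm2, and 2 and 9 for Cnn1, against 5594 to 8332 for Cald1. Without Cald1, the summed RPKM of the other genes was 58.9 ± 7.91 in HepLPC, 108 ± 10.1 in PBS and 48.1 ± 3.62 in normal livers.

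**Figure D1:**
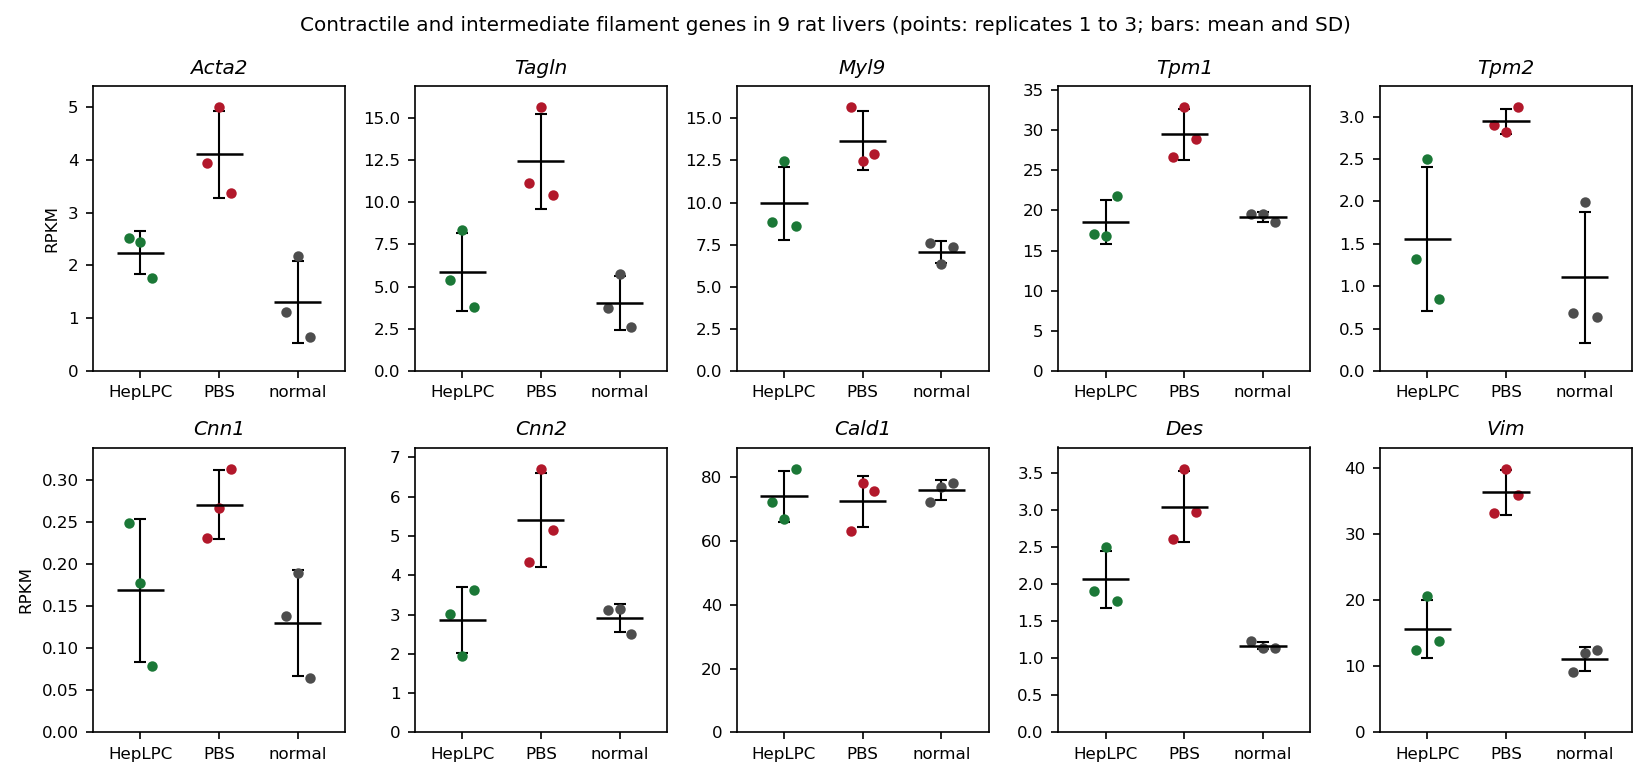
RPKM of each gene by group, with 1 point per library (replicates 1 to 3 from left to right in each group), the mean as a line and the SD as a bar. The 3 PBS libraries lie above the normal and HepLPC libraries for Acta2, Tagln, Tpm1, Tpm2, Cnn2, Des, Vim and Myl9, whose highest HepLPC and lowest PBS libraries nearly touch (both 12.5 when rounded), while Cald1 shows no separation.

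The PBS and normal livers show how these genes differ between cirrhotic and healthy liver. Of the 10 genes, 6 were higher in PBS livers by limma (Vim, Tagln, Acta2, Des, Myl9 and Tpm1), none was called lower, 3 did not pass and Cnn1 was below the filter of 1 RPKM in 3 libraries. Among all genes, 10.4% of the 11124 tested genes were called higher. The median log2 difference of the 9 tested genes was 0.89, beside 0.18 for all tested genes. The values of the 2 groups did not overlap for 8 of the 9 tested genes and for Cnn1, and for 32.7% of all tested genes (PBS above normal). Log2 differences here and below are differences of mean log2(RPKM + 1) with their standard error (SE) and a Benjamini-Hochberg adjusted p from limma, and they understate the change of genes near 1 RPKM.

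Acta2, the actin of smooth muscle and the usual marker of myofibroblasts, was at 3.94, 5.00 and 3.37 RPKM in PBS replicates 1 to 3 and at 1.11, 2.17 and 0.634 RPKM in normal replicates 1 to 3. The lowest PBS library lay above the highest normal library. The difference was 1.19 (SE 0.24, adjusted p = 0.0126), and the group means stood in a ratio of 3.14. Tagln, transgelin, an actin-binding protein of smooth muscle, was at 11.2, 15.6 and 10.5 RPKM in PBS livers and at 3.72, 5.76 and 2.61 RPKM in normal livers. It rose by 1.44 (SE 0.29, adjusted p = 0.0132). Both genes were highest in normal replicate 2 among the normal livers, and so was Tpm2. In that library the smooth muscle myosin Myh11 was at 0.859 RPKM, against 0.343 and 0.291 RPKM in normal replicates 1 and 3. Among PBS livers Acta2, Tagln and Myh11 were all highest in replicate 2. Myh11 was at 1.15 RPKM there, against 0.383 and 0.624 RPKM in PBS replicates 1 and 3. Among HepLPC livers Myh11 (1.33 RPKM) and Acta2 were highest in replicate 1, and Tagln in replicate 2. The part of smooth muscle RNA in these values was not tested. Without normal replicate 2 the difference was 1.45 for Acta2 (adjusted p = 0.00702) and 1.68 for Tagln (adjusted p = 0.0151).

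Myl9, the regulatory light chain of smooth muscle myosin, was at 15.7, 12.5 and 12.9 RPKM in PBS livers and at 7.59, 6.35 and 7.33 RPKM in normal livers, with no overlap (0.86, SE 0.16, adjusted p = 0.00978). The tropomyosins wind along actin and govern the access of myosin. Tpm1 was at 26.6, 32.9 and 28.9 RPKM in PBS and at 19.5, 19.5 and 18.5 RPKM in normal livers, a rise of 0.59 (SE 0.13, adjusted p = 0.0227) in all 3 PBS libraries over all 3 normal ones. Tpm2 was at 2.90, 2.82 and 3.11 RPKM in PBS and at 0.682, 1.998 and 0.634 RPKM in normal livers. Its groups did not overlap, but the difference of 0.97 (SE 0.28) missed the threshold (adjusted p = 0.0540), and it passed without normal replicate 2 (1.25, adjusted p = 0.0247).

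The calponins and caldesmon hold back the myosin ATPase on the thin filament. Cnn2, the calponin also found outside muscle, was at 4.34, 6.71 and 5.16 RPKM in PBS livers and at 3.12, 3.13 and 2.51 RPKM in normal livers. The groups were separate, and the difference of 0.70 (SE 0.20) lay just outside the threshold (adjusted p = 0.0507). Without PBS replicate 1 and HepLPC replicate 2, Cnn2 and Tpm2 both passed (adjusted p = 0.00995 and 0.0366). Cnn1, the calponin of differentiated smooth muscle, had 6, 8 and 9 reads in PBS livers and 4, 6 and 2 reads in normal livers. The 23 reads in PBS against 12 in normal livers give a depth-corrected ratio of 2.08 with an exact 95% interval of 0.994 to 4.59 that covers counting error only, so a difference was not detectable at this depth. Cald1, caldesmon, was at 63.3, 78.3 and 75.8 RPKM in PBS and at 72.4, 77.1 and 78.3 RPKM in normal livers. The groups overlapped, and the difference was -0.07 with a 95% interval of -0.36 to 0.22 (adjusted p = 0.763).

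Among the intermediate filaments, Vim was at 33.1, 39.9 and 35.9 RPKM in PBS livers and at 9.07, 12.0 and 12.4 RPKM in normal livers. It rose by 1.62 (SE 0.19, adjusted p = 0.00108), and the lowest PBS library was far above the highest normal one. Des was at 2.61, 3.55 and 2.96 RPKM in PBS livers and at 1.23, 1.14 and 1.14 RPKM in normal livers. The normal libraries lay close together, the groups were separate, and Des rose by 0.89 (SE 0.14, adjusted p = 0.00372).

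The calls of Vim and Des passed under each of the 21 alternatives tried, and the others did not. After rescaling by the median of ratios, which moved the median log2 difference of all genes from 0.18 to -0.01, Vim, Des and Acta2 passed (1.39, 0.73 and 1.02) and Tagln (adjusted p = 0.0508), Myl9 (adjusted p = 0.0910) and Tpm1 (adjusted p = 0.111) did not. After quantile normalization Vim and Des passed, and Acta2 (adjusted p = 0.0696), Tagln (adjusted p = 0.0511), Myl9 (adjusted p = 0.0657) and Tpm1 (adjusted p = 0.0918) did not. Acta2 missed the threshold without PBS replicate 2 (adjusted p = 0.0509) or normal replicate 1 (adjusted p = 0.0501), Tagln without PBS replicate 2 (adjusted p = 0.0518) or normal replicate 3 (adjusted p = 0.0540), and Tpm1 without PBS replicate 2 or 3 (adjusted p = 0.0828 and 0.0910) or normal replicate 1, 2 or 3 (adjusted p = 0.0698, 0.0758 and 0.0835).

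**Figure D2:**
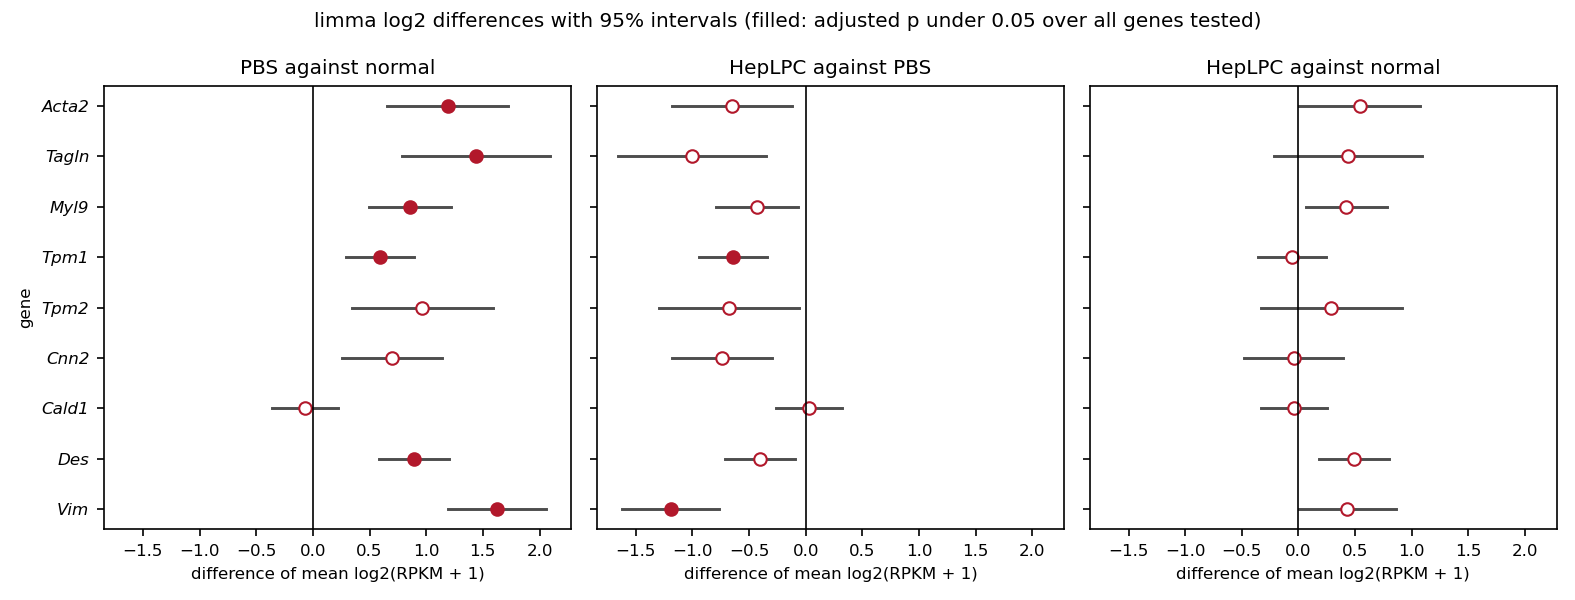
Difference of mean log2(RPKM + 1) for the 9 tested genes in 3 comparisons, with 95% intervals from limma and filled points for an adjusted p under 0.05. In PBS against normal 6 points are filled to the right of 0, in HepLPC against PBS the points of Tpm1 and Vim are filled to the left, and in HepLPC against normal none is filled.

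The HepLPC and PBS livers, both cirrhotic, differ in what was injected, and the comparison shows how the genes stood after the cells. Vim and Tpm1 were lower in HepLPC livers, 2 of the 10 genes, where 2.93% of all tested genes were called lower. The other 7 tested genes did not pass, and none was called higher. The median log2 difference of the 9 tested genes was -0.65, beside -0.14 for all tested genes. Each HepLPC library lay below each PBS library for 8 of the 9 tested genes, as for 15.6% of all tested genes.

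Vim was at 12.4, 20.5 and 13.9 RPKM in HepLPC replicates 1 to 3, against 33.1, 39.9 and 35.9 RPKM in PBS livers. The groups were separate and Vim fell by 1.19 (SE 0.19, adjusted p = 0.0135), with a ratio of group means of 0.430. Tpm1 was at 17.0, 16.9 and 21.8 RPKM in HepLPC livers, against 26.6, 32.9 and 28.9 RPKM in PBS livers, and fell by 0.64 (SE 0.13, adjusted p = 0.0368), with a mean of 18.6 ± 2.78 RPKM in HepLPC and 19.2 ± 0.591 RPKM in normal livers. HepLPC replicate 2 was the highest HepLPC library for Vim and the lowest for Tpm1. The Vim call was lost without HepLPC replicate 1 (adjusted p = 0.0533), PBS replicate 2 (adjusted p = 0.0568) or PBS replicate 3 (adjusted p = 0.103), after rescaling by the median of ratios (adjusted p = 0.0613) and with the 2 groups alone in the fit (adjusted p = 0.0539), and it passed without PBS replicate 1 and HepLPC replicate 2 together (-1.46, adjusted p = 0.0133). The Tpm1 call was lost in 13 of 21 alternatives, among them the omission of any 1 library other than HepLPC replicate 3 (adjusted p from 0.0501 without PBS replicate 1 to 0.177 without PBS replicate 3) and of the PBS replicate 1 and HepLPC replicate 2 pair (adjusted p = 0.0567).

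Acta2, Tagln, Myl9 and Tpm2 had lower values in HepLPC than in PBS livers but did not pass the test in the fit reported. Acta2 was at 2.52, 2.44 and 1.77 RPKM in HepLPC livers, each below the lowest PBS value of 3.37 RPKM, with a difference of -0.65 (SE 0.24, adjusted p = 0.210) and a 95% interval of -1.18 to -0.12. Tagln was at 5.42, 8.36 and 3.77 RPKM in HepLPC livers, below the 10.5 to 15.6 RPKM of PBS livers, with a difference of -1.005 (SE 0.29, adjusted p = 0.108). Myl9 was at 8.82, 12.5 and 8.60 RPKM in HepLPC livers, and its highest library came within rounding of the lowest PBS library (12.5 RPKM). Its difference was -0.43 (adjusted p = 0.219), and Myl9 passed after length correction (adjusted p = 0.0365). Tpm2 was at 1.32, 2.50 and 0.844 RPKM in HepLPC livers (-0.68, adjusted p = 0.267), and its highest library lay near the lowest PBS library (2.82 RPKM). For Tagln, Myl9, Tpm2, Des and Vim the highest HepLPC library was replicate 2, which also stood apart in its relation to gene length.

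Cnn2 was at 3.00, 1.95 and 3.63 RPKM in HepLPC livers, each below the lowest PBS library, with a difference of -0.74 (SE 0.20, adjusted p = 0.0826). Cnn1 had 7, 5 and 2 reads in HepLPC livers, 14 in all against 23 in PBS livers, a depth-corrected ratio of 0.632 with an exact 95% interval of 0.301 to 1.28. Cald1 was at 72.4, 67.0 and 82.8 RPKM in HepLPC livers and overlapped with the PBS livers (0.03, 95% interval -0.26 to 0.32, adjusted p = 0.917). Des was at 1.91, 2.50 and 1.77 RPKM in HepLPC livers, below the 2.61 to 3.55 RPKM of PBS livers but close to them in replicate 2, with a difference of -0.40 (SE 0.14, adjusted p = 0.180).

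HepLPC against normal livers shows what difference remained from livers that had no CCl4. None of the 9 tested genes passed, and 0.0809% of all tested genes did, in either direction. The comparison shares its libraries with the other 2, so its values are not independent of theirs. Des was at 2.06 ± 0.387 RPKM in HepLPC and 1.17 ± 0.0493 RPKM in normal livers, with no overlap and a difference of 0.49 (95% interval 0.18 to 0.80, adjusted p = 0.294, unadjusted p = 0.00581). Myl9 (0.42, 95% interval 0.06 to 0.78, adjusted p = 0.469) and Vim (0.43, 95% interval 0.000742 to 0.86, adjusted p = 0.536) were also higher in each HepLPC library than in each normal one, as 12.3% of all tested genes were. The highest HepLPC library for these 3 genes was replicate 2. Acta2 was at 2.25 ± 0.413 RPKM in HepLPC and 1.31 ± 0.786 RPKM in normal livers, overlapping through normal replicate 2 (0.54, 95% interval 0.01 to 1.07, adjusted p = 0.533). Tpm1 (-0.05, 95% interval -0.36 to 0.25), Cnn2 (-0.04, 95% interval -0.48 to 0.40) and Cald1 (-0.04, 95% interval -0.33 to 0.25) had the differences nearest 0, and the signs of all 3 turned positive without HepLPC replicate 2 (0.01, 0.14 and 0.03). For Tagln (0.44, adjusted p = 0.724) and Tpm2 (0.29, adjusted p = 0.815) the HepLPC and normal libraries overlapped.

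RPKM is per length, and levels of different genes are set against each other here within a library. Deviations from the group mean still varied with gene length, most in PBS replicate 1 and HepLPC replicate 2. Ratios of genes of unlike length are therefore uncertain. Acta2 amounted to 0.572 ± 0.200% of the cytoplasmic actin Actb in HepLPC livers, 0.752 ± 0.130% in PBS livers and 0.346 ± 0.224% in normal livers, and was under 1% of it in each library. Des stood at 13.4 ± 1.68% of Vim in HepLPC livers, 8.35 ± 0.519% in PBS livers and 10.7 ± 2.41% in normal livers. Each HepLPC library (12.2 to 15.3%) had a higher ratio of Des to Vim than each PBS library (7.89 to 8.91%), a difference that was not tested. Tpm2 was at 8.83 ± 5.56% of Tpm1 in HepLPC, 10.1 ± 1.30% in PBS and 5.72 ± 3.90% in normal livers. The PBS libraries lay between 8.59 and 10.9%, while the HepLPC libraries ran from 3.88 to 14.8% and the normal libraries from 3.43 to 10.2%. The means rest on 1 library each: without HepLPC replicate 2, one of the libraries that stood apart by gene length, the HepLPC mean was 5.82%, and without normal replicate 2 the normal mean was 3.46%. Actins, tropomyosins, calponins and myosin light chains are families of closely similar genes, and the sources used here do not say how reads shared within a family were counted, so these ratios and the level of each such gene are uncertain to that extent.

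Other genes of the contractile machinery were read from lists chosen with earlier results of these data known. Of 17 other smooth muscle and myofibroblast contractile genes 11 were tested, and 4 were higher in PBS than in normal livers, with a median difference of 0.55. All tested genes had 10.4% called higher and a median of 0.18, and in HepLPC against PBS livers 2.93% called lower. The 4 were Tagln2, a transgelin made in many cell types, at 40.3 ± 1.79 against 13.3 ± 0.274 RPKM (1.53, SE 0.14, adjusted p = 0.000394), Fhl2, a LIM protein and SRF partner (1.29), Pdlim7 (0.60) and Tgfb1i1 (0.55). In HepLPC against PBS livers 2 of them were lower, Tagln2 (-0.99, adjusted p = 0.00882) and Fhl2 (-0.80, adjusted p = 0.0155). The calls of Pdlim7 and Tgfb1i1 in PBS livers were lost in 12 of 21 and 5 of 16 alternatives. Myh11 and Lmod1, the defining smooth muscle markers of the lists, were below the filter. Smtn and Mylk, also among the 17, were tested and not called. Smtn differed by 0.26 (adjusted p = 0.365) in PBS against normal livers and by -0.06 (adjusted p = 0.865) in HepLPC against PBS livers. Mylk differed by 0.55 (adjusted p = 0.338) and -0.61 (adjusted p = 0.429). Myh11 was at 0.763 ± 0.491 RPKM in HepLPC, 0.717 ± 0.389 RPKM in PBS and 0.497 ± 0.314 RPKM in normal livers, with overlap throughout. Lmod1, leiomodin of smooth muscle, was at 0.131 ± 0.0633, 0.434 ± 0.0554 and 0.0511 ± 0.0292 RPKM in HepLPC, PBS and normal livers. Each PBS library was above each other library for Lmod1. Over all tested genes, each PBS library was above each normal one for 32.7%, and each HepLPC library below each PBS one for 15.6%.

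Of 20 genes of the non-muscle actin cytoskeleton, which most cells use, 8 were higher in PBS than in normal livers, with a median difference of 0.54, beside the same 10.4% and 0.18 over all tested genes. The 4 largest were Tmsb10, a thymosin that binds actin monomers, at 139 ± 28.2 against 32.8 ± 6.59 RPKM (2.05, SE 0.28, adjusted p = 0.00212), Myh10, a non-muscle myosin heavy chain (1.38), Tpm4, a further tropomyosin (1.12), and the crosslinker Flna (1.11). In HepLPC against PBS livers 1 of the 20 was lower, where 2.93% of all tested genes were, Myh10, at 0.793 ± 0.343 against 2.83 ± 1.12 RPKM (-1.07, adjusted p = 0.0394), a call lost in 11 of 21 alternatives. Of 6 tested genes of other intermediate filaments and the nuclear lamina, 3 were higher in PBS livers, the simple epithelial keratins Krt8 (1.24, adjusted p = 0.00111) and Krt18 (0.75) and the lamin Lmna (0.62), and Krt8 was lower in HepLPC livers (-1.18, adjusted p = 0.00492). The PBS calls of Tpm4 and Krt18 were lost in 10 alternatives each, that of Lmna in 7, and the HepLPC calls of Fhl2 and Tagln2 in 5 and 3. In HepLPC against normal livers none of the tested genes in these 3 lists passed limma.

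**Figure D3:**
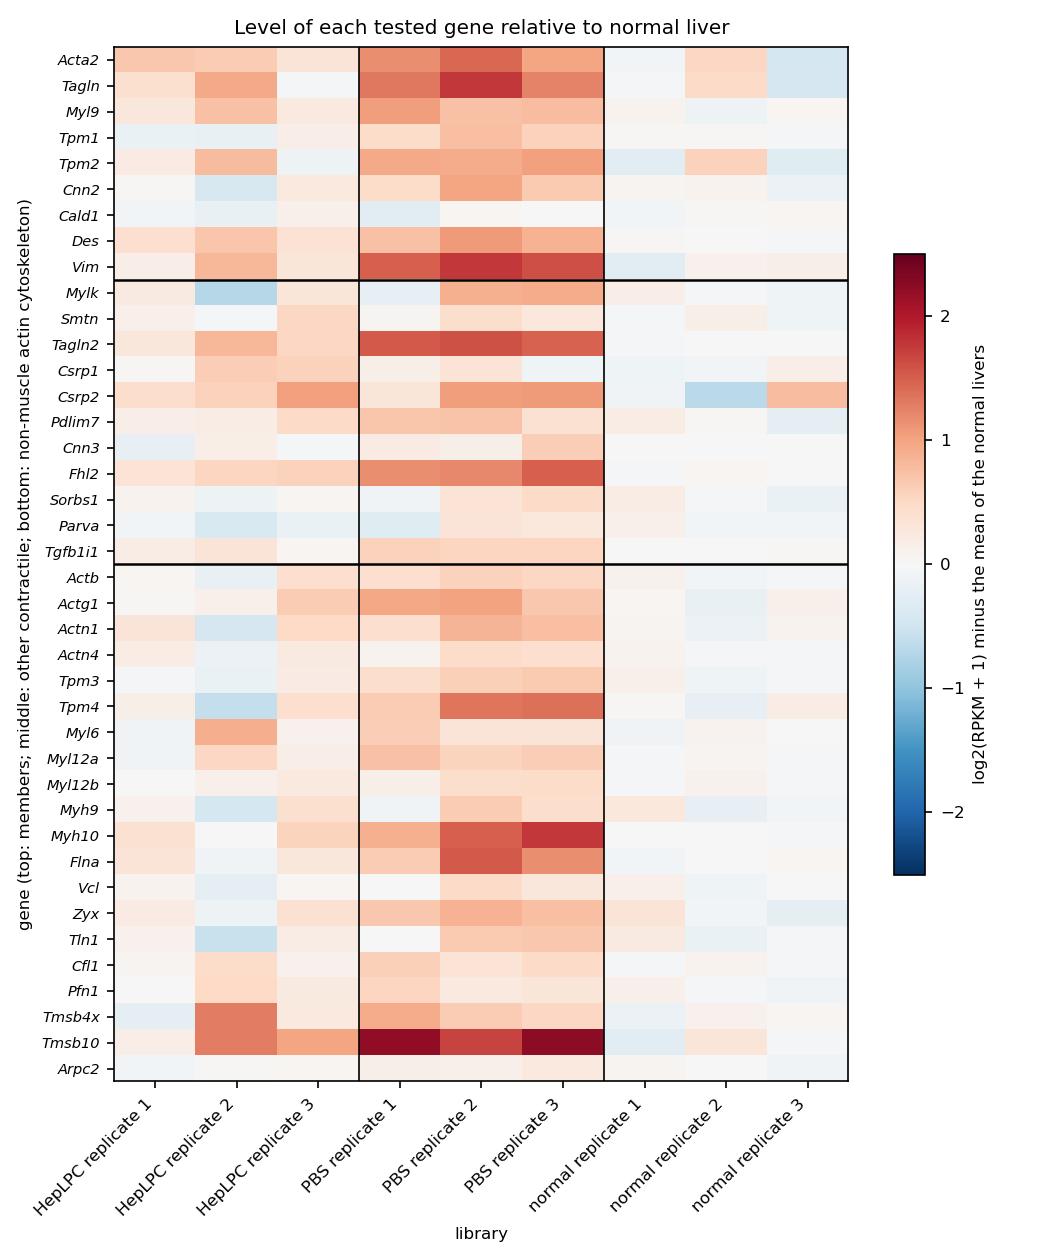
Log2(RPKM + 1) of each tested gene in each library minus the mean of the normal livers, from the 9 tested genes named above at the top through other contractile genes to the non-muscle actin cytoskeleton at the bottom. The 3 PBS columns are red for Tagln, Vim, Tagln2, Fhl2 and Tmsb10, while Cald1 stays near 0 in each library.

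Marker lists of the cells that could carry these transcripts were summed for each library. Of 12 tested stellate cell markers 2 were higher in PBS than in normal livers, Cygb, cytoglobin (1.86, adjusted p = 0.000206), and Dcn, decorin (1.89, adjusted p = 0.00681), where 10.4% of all tested genes were called higher. The median difference of the list was 0.30, beside 0.18 for all tested genes, and in HepLPC against PBS livers -0.15, beside -0.14. Cygb was lower in HepLPC than in PBS livers (-1.43, adjusted p = 0.00187), at 3.26 ± 0.340 against 10.5 ± 1.40 RPKM. The summed stellate list ranged from 239 to 473 RPKM in HepLPC, 283 to 315 RPKM in PBS and 208 to 229 RPKM in normal livers, and Lrat, the defining enzyme of vitamin A storage, was at 10.9 ± 3.07, 11.9 ± 3.64 and 8.02 ± 1.01 RPKM. The smooth muscle and pericyte list, with 2 of 10 genes tested and neither called, ranged from 5.30 to 12.5 RPKM in HepLPC, 8.76 to 20.8 RPKM in PBS and 5.04 to 7.79 RPKM in normal livers.

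Some markers of other cell types moved with the group too. Of 8 tested duct cell markers 7 were higher in PBS than in normal livers and 7 lower in HepLPC than in PBS livers. Among all tested genes 10.4% were called higher in PBS livers and 2.93% lower in HepLPC livers. Spp1, Cd24, Krt19 and Epcam led the duct list. The HepLPC against PBS call was lost for Krt19 in 12, for Spp1 in 10 and for Epcam in 2 of 21 alternatives. Their sum ranged from 14.5 to 27.2 RPKM in HepLPC, 56.7 to 191 RPKM in PBS and 13.9 to 16.4 RPKM in normal livers. Of 4 tested mesothelial markers, cells of the liver surface that make vimentin as well, 2 were higher in PBS livers and lower in HepLPC livers, Krt19 and Msln. Mesothelin (Msln) was at 0.262 ± 0.116 RPKM in HepLPC, 6.22 ± 4.10 RPKM in PBS and 0.104 ± 0.0953 RPKM in normal livers, and the sum of the list ranged from 9.07 to 15.4, 19.5 to 53.7 and 5.75 to 10.2 RPKM in HepLPC, PBS and normal livers. Krt19 is a duct marker as well, and without it the sums overlapped, at 7.45 to 13.0 RPKM in HepLPC, 8.61 to 22.4 RPKM in PBS and 5.42 to 9.51 RPKM in normal livers. Upk3b was at 0 in 3 libraries and Msln in 1. Of 7 tested macrophage and leukocyte markers 1, Lyz2, was higher in PBS livers (2.46) and lower in HepLPC livers (-2.27). The shares over all tested genes are those given above. The sum of the leukocyte list was 162 to 218 RPKM in HepLPC, 251 to 364 RPKM in PBS and 143 to 182 RPKM in normal livers. Without Lyz2 the sum was 144 to 196 RPKM in HepLPC, 176 to 255 RPKM in PBS and 124 to 164 RPKM in normal livers, and HepLPC and PBS livers overlapped.

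Of 10 endothelial markers Vwf was higher in PBS than in normal livers (0.89), 1 of 10 where 10.4% of all tested genes were called higher, a call lost in 4 of 21 alternatives, and the sums were 95.5 to 111, 108 to 134 and 93.6 to 108 RPKM in HepLPC, PBS and normal livers. Of 2 tested portal fibroblast markers 1, Eln, elastin, was higher in PBS livers (1.69, adjusted p = 0.00286), beside the same 10.4% of all tested genes. The other, Dpt, went the other way and was not called (-0.47, adjusted p = 0.101), at 180 ± 29.0 RPKM in PBS and 249 ± 24.7 RPKM in normal livers. Each PBS library was below each normal one for Dpt, as for 4.92% of all tested genes. The sum of the portal fibroblast list, 183 to 245, 167 to 218 and 226 to 275 RPKM, came mostly from Dpt, and Mfap4 was listed at 0 in every library. Its defining markers, Thy1 and Fbln2, were below the filter and not tested. Thy1 was at 0.173 ± 0.0310, 0.636 ± 0.385 and 0.0690 ± 0.0211 RPKM in HepLPC, PBS and normal livers. Fbln2 was at 0.328 ± 0.0857, 0.711 ± 0.135 and 0.210 ± 0.0594 RPKM. For both, each PBS library was above each other library. Among all tested genes, 32.7% had each PBS library above each normal one and 15.6% had each HepLPC library below each PBS one. None of 10 hepatocyte markers was called in any of the 3 comparisons. The part of these cell types in the levels of Vim, Tpm1 and the other contractile genes was not tested.

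**Figure D4:**
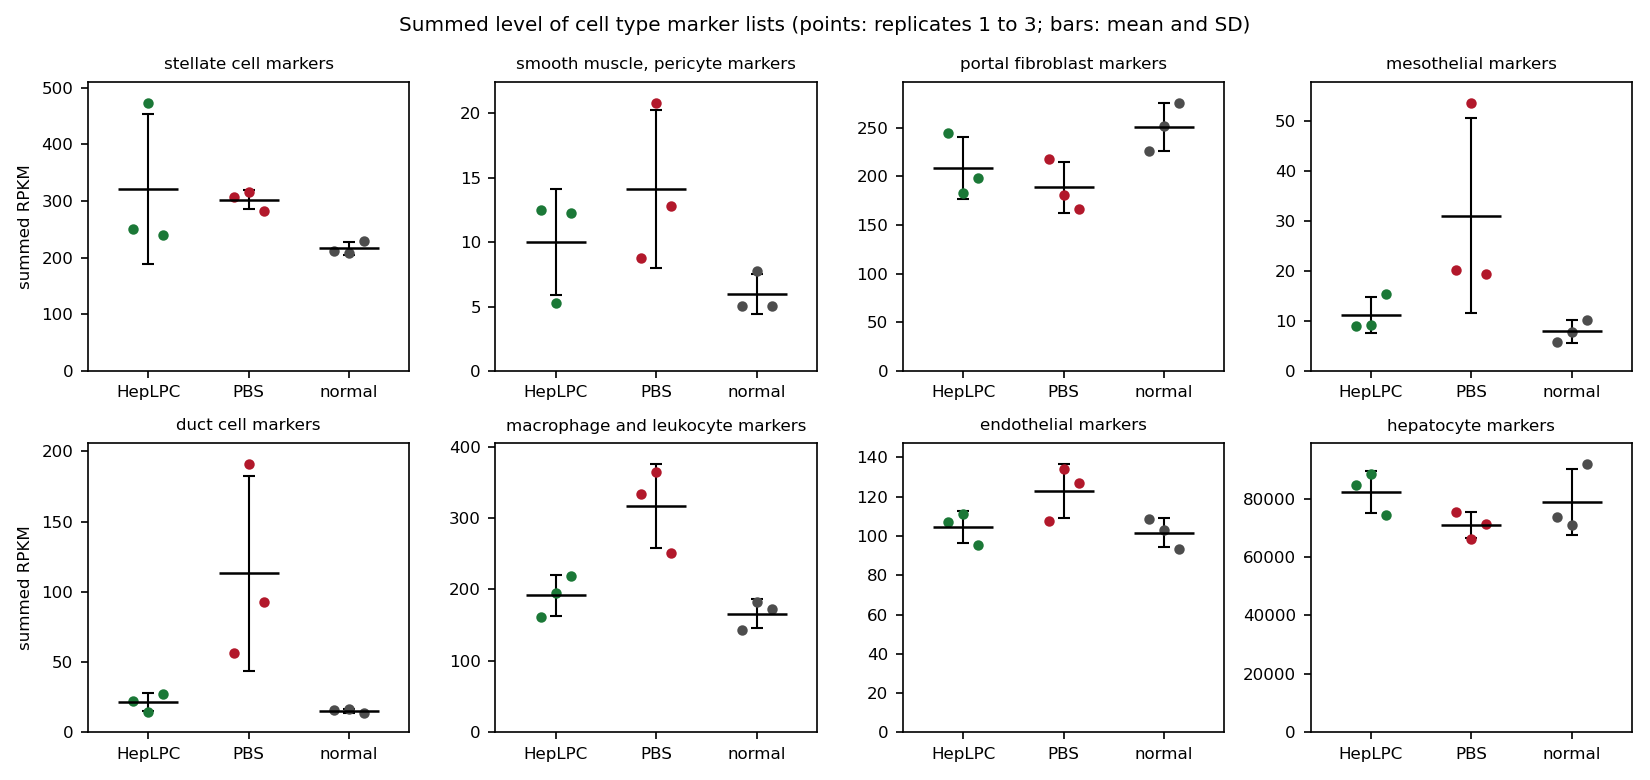
Summed RPKM of 8 marker lists by group, with 1 point per library, the mean as a line and the SD as a bar. Duct cell markers in PBS livers (56.7 to 191) lie above both other groups, and so do the sums of the mesothelial and the macrophage and leukocyte lists, which overlap with HepLPC livers without Krt19 and without Lyz2, while the smooth muscle and pericyte lists overlap between HepLPC and PBS livers.

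By the correlation of log2(RPKM + 1) over the 9 libraries with the mean standardized profile of the 10 genes, the most alike named genes outside the list were Agpat1 (Pearson r 0.984), Anxa13 (0.975), Nbl1 (0.969), Ckb (0.968) and Cd24 (0.966). The libraries fall into the 3 groups, so these values describe a shared order of groups and carry no test. Ckb, the brain isoform of creatine kinase, was at 8.39 ± 1.30 RPKM in HepLPC, 18.8 ± 5.51 RPKM in PBS and 6.15 ± 0.216 RPKM in normal livers. Agpat1, an acyltransferase of phospholipid synthesis, was at 1.36 ± 0.104 RPKM in HepLPC, 2.25 ± 0.362 RPKM in PBS and 1.08 ± 0.0965 RPKM in normal livers. Cd24 is also among the duct cell markers above. It was at 1.46 ± 0.510 RPKM in HepLPC, 18.7 ± 11.6 RPKM in PBS and 0.683 ± 0.288 RPKM in normal livers.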

How the data were processed

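RNA of 9 whole liver samples was extracted with TRIzol, cleared of DNA and sequenced on Illumina instruments from TruSeq libraries, per the labels' protocols. The deposited values are RPKM per gene row, per the file headers. The submitters' processing notes name HISAT2 and StringTie and give hg19, a human build, although gene symbols are those of the rat, so the authors' build and annotation are uncertain, and no coordinates of that build are given. Counting details are not given in the sources used here. Groups and replicate numbers came from the sample titles.

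Reads and gene model lengths were recovered from the RPKM values (whole within 0.01 read for 20959 of 20959 genes above 0 in 3 or more libraries, with 99.8% of lengths whole). They served for depth, for length and for the reads behind a value, and intervals on reads cover counting error only. Depth was 17.4 to 21.8 M reads. Replicates differed by more than sampling noise in every pair (chi-square per degree of freedom of at least 32.2).

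limma 3.58.1 in R 4.3.3 (lmFit, eBayes with a trend, 2-sided) was fitted to log2(RPKM + 1) of the 11124 genes that reached 1 RPKM in at least 3 libraries. The model held the 9 libraries and the group as its factor (6 residual degrees of freedom), with Benjamini-Hochberg adjustment over these genes and calls at an adjusted p under 0.05. The fit and the read recovery were tested on simulated data. The genes, the 4 pathway and 8 marker lists and the rule for named genes (the 10 genes, up to 4 called genes per list and comparison, defining markers, 5 most alike genes) were chosen with earlier results of these data known. One pathway list is not reported here. Of the defining markers, Reln, Ptprc, Cd68, Pecam1, Cdh5 and Apoa1 were tested and called in no comparison, and their values are not given. Genes beyond that rule, such as Actb, were named after their values were seen. The closing section names the 21 alternative fits, 1 of them added after seeing the data, as were the marker sums without Krt19 or Lyz2 and the ratio of Tpm2 to Tpm1 without 1 library. Promoter sequences are from RefSeq (GRCr8), matched by symbol. Figures were drawn with matplotlib 3.10.9.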

Additional observations from a re-analysis of the deposited data

How the results depend on the processing

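Of the 21 alternatives, 1, the omission of PBS replicate 1 and HepLPC replicate 2 together, was chosen after seeing the data. For PBS against normal livers, the 6 genes called became 3 after rescaling by the median of ratios and 2 after quantile normalization, 7 after length correction, 8 without the pair, and 3 to 8 over the 9 fits that each left out 1 library. All genes called numbered 1262, and 782, 714, 2193 and 787 after rescaling, quantile normalization, length correction and the replicate block, 2953 without the pair of libraries, and 419 to 1797 without 1 library. Of these, 1157 were higher and 105 lower, against 566 and 216 after rescaling. For HepLPC against PBS livers, the 2 genes called became 0 after rescaling, 1 after quantile normalization, 0 with the 2 compared groups alone in the fit, 3 after length correction (Myl9 gained, adjusted p = 0.0365), 1 without the pair, and 0 to 2 without 1 library. All genes called numbered 341, and 204, 213, 791, 86 and 198 after rescaling, quantile normalization, length correction, with the 2 groups alone and with the replicate block, and 39 to 289 without 1 library. For HepLPC against normal livers, 0 of the 9 tested genes was called by limma in the fit reported and in each alternative. All genes called numbered 9, and 0 with no filter, 2 with the filter on the mean, 5 and 3 after rescaling and quantile normalization, 1 with the replicate block, 1 with that block and the length correction, 15 without the pair, and 0 to 17 without 1 library. The length correction takes out spread within groups without lowering the degrees of freedom.

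The correlation of deviations of same-numbered samples across groups ran from -0.412 to 0.310, over 0.1 in 3 of 9 pairs. These deviations were not corrected for gene length, by which PBS replicate 1 and HepLPC replicate 2 stood apart. The correlations therefore cannot decide whether the replicate numbers pair the samples. With the replicate block, Tpm1 was lost in PBS against normal (adjusted p = 0.0596) and in HepLPC against PBS (adjusted p = 0.0881), and Tpm2 (adjusted p = 0.0452) and Tagln (-1.005, adjusted p = 0.0214, and 0.0197 with the length correction) were gained in these comparisons. Signs turned for uncalled genes near 0. In PBS against normal, Cald1 was 0.0215 without PBS replicate 1 and without the pair, and ran from -0.130 to 0.0215 over the fits without 1 library. In HepLPC against PBS, Cald1 was -0.0505 without HepLPC replicate 3 and -0.0616 without PBS replicate 1, within -0.0616 to 0.09999 without 1 library. In HepLPC against normal, without HepLPC replicate 2 and without the pair, Cald1 was 0.0284, Cnn2 0.139 and Tpm1 0.00628, and the ranges without 1 library were -0.122 to 0.0284, -0.186 to 0.139 and -0.169 to 0.00628. The causes of these changes were not tested. Pseudocounts of 0.1 and 5 and a fit with no mean-variance trend were the remaining alternatives. With no filter on low values, Cnn1, at 2 to 9 reads per library, was tested and not called (0.17 and adjusted p = 0.163 in PBS against normal, -0.12 and adjusted p = 0.431 in HepLPC against PBS).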
